A study of Mus musculus with 12 samples.

Results

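The Polo-like kinases Plk1, Plk2, Plk3 and Plk4 were followed through the 3 zones of the mouse growth plate. These 4 genes were chosen by symbol from the array's probe annotation, out of 19526 genes with a symbol, and 6 of the 41174 probes carry their names: 1 each for Plk1, Plk2 and Plk3 and 3 for Plk4. The family was picked because Plk2 was far higher in the hypertrophic zone, unlike Plk1. The zone differences of Plk2 and Plk1 are therefore described without a test, while Plk3 and Plk4, whose values the choice did not use, are given with one. All samples were Swiss White mice aged 14 days, with no treatment or genetic change given, and the tissue was cartilage of the femoral growth plate. Cryosections were microdissected into a proliferative, a prehypertrophic and a hypertrophic zone, 4 samples of each, and the amplified RNA was hybridised as pairs of different zones on 6 two-colour arrays, each pair of zones in both dye orientations. Separate or pooled animals are not mentioned in the labels. Standard deviations measure the spread between these samples. Standard errors and p-values measure the scatter of the ratios of the 6 arrays about the fit. Either spread may be technical.

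Polo-like kinases are serine/threonine kinases with an amino-terminal kinase domain and carboxy-terminal polo-boxes, which dock the kinase on its targets. Plk1 drives entry into mitosis, spindle assembly and cytokinesis, and its RNA is high in dividing cells. Plk4 starts centriole duplication. Plk2 and Plk3 were described as genes induced by serum and growth factors, and both respond to cellular stress and p53. Plk2 is also known for its work at neuronal synapses. Growth plate chondrocytes divide in columns in the first of these zones, stop dividing in the prehypertrophic one and swell in the last, next to the marrow.

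Of the chondrocyte marker sums, that of hypertrophic markers separated the 3 zones, and the others did not. The level of a gene in a sample is the log2 channel value less that sample's 75th percentile over all probes. Summed on a linear scale over 5 hypertrophic chondrocyte markers (such as Col10a1, Mmp13 and Alpl), it ran from 4.43 to 15.4 in proliferative, 74.98 to 126 in prehypertrophic and 184 to 276 in hypertrophic samples. Over 8 proliferative chondrocyte markers it ran from 317 to 486, 269 to 507 and 270 to 373, and over 5 prehypertrophic markers from 27.5 to 48.0, 125 to 188 and 130 to 153. The proliferative sums thus overlapped among all 3 zones, and the prehypertrophic sums overlapped between the prehypertrophic and hypertrophic zones. Single hypertrophic markers did not all follow their sum. For prehypertrophic less proliferative, 3 of the 5 passed as higher, Vegfa passed as lower (-0.59, log2) and Mmp13 (-0.15) did not pass. For hypertrophic less prehypertrophic, 3 were higher, 0 lower and 2 did not pass. For the 5 prehypertrophic markers, the first of these comparisons gave 4 higher, with Sp7 lower (-0.39). Of the 8 proliferative markers, 4 were lower in the hypertrophic than in the proliferative zone, 2 higher and 2 did not pass. Sox9 differed by -2.71 (log2), Matn1 by -1.70, Matn3 by -1.57 and Fgfr3 by -1.03. The proliferation marker Mki67 was 0.48 and Acan 0.32 higher in the same comparison. Mki67 was at -3.59 for prehypertrophic less proliferative. Of all features, 28.2% passed as higher and 30.7% as lower in the hypertrophic than in the proliferative zone. Marker sums of other cell types were also highest in the hypertrophic zone. The sum over 13 leukocyte and marrow markers was 6.63 to 19.0, 8.49 to 21.4 and 248.7 to 331, and all 13 passed as higher in the hypertrophic than in the proliferative zone. For 7 erythroid markers it was 18.9 to 84.6, 17.5 to 108 and 131 to 204, with all 7 higher. For 10 endothelial markers it was 3.604 to 3.99, 3.83 to 4.69 and 11.7 to 14.1, with 6 higher and 0 lower. For 9 osteoclast markers it was 10.3 to 12.01, 10.7 to 12.9 and 26.9 to 28.7, with 5 higher and 2 lower, and for 7 osteoblast markers 76.9 to 106, 42.8 to 49.8 and 144 to 216, with 6 higher and 1 lower. Median log2 differences of single markers (hypertrophic less proliferative) were 3.83 for leukocyte and marrow, 2.10 for erythroid and 1.08 for osteoblast markers. They were smaller for endothelial (0.45) and osteoclast (0.42) markers. None of these lists had a marker that was below the background limit in all samples of a zone. Which cells carry the Plk values was not tested, and in such samples more cells of a type and more RNA per cell cannot be told apart.

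Plk2 was a gene of the hypertrophic zone. Its processed signal, the background-subtracted brightness of its spot in arbitrary units, was 25100, 18826, 19011 and 19719 in hypertrophic replicates 1 to 4. In the prehypertrophic samples it was 592, 395, 308 and 282, and in the proliferative samples 311, 196, 196 and 217. Every hypertrophic sample was far above the other 8, with the lowest of them 31.8-fold over the highest prehypertrophic sample, while the prehypertrophic and proliferative ranges overlapped. All 12 spots were well above background and 0 were saturated, so that no ceiling bounds the ratio. The background flag is lenient: it passed 92.6 to 96.2% of non-control spots in a sample, whose median signals were 520 to 697. How much of the low Plk2 signal is specific was therefore not settled by the flag, and a floor under the ratio was not tested. Mean levels were 3.48 ± 0.10, -2.34 ± 0.68 and -3.15 ± 0.38 (log2, SD, n = 4) in the hypertrophic, prehypertrophic and proliferative zones.

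In the fit, Plk2 was 6.28 ± 0.20 higher in the hypertrophic than in the proliferative zone (log2 difference with its standard error, n = 6 array ratios). This was a 77.4-fold difference, with 4 samples per zone. That placed Plk2 at rank 5 among the rises of all 27173 features. From the prehypertrophic to the hypertrophic zone the difference was 5.54 ± 0.20, or 46.7-fold and rank 4. The step from proliferative to prehypertrophic was small, at 0.73 ± 0.20 or 1.66-fold. Thus 88.4% of the log2 difference lay between the prehypertrophic and hypertrophic zones. The 2 arrays that held hypertrophic beside proliferative RNA gave 6.36 and 6.64, and the route through the prehypertrophic zone gave 5.83. The arrays with hypertrophic beside prehypertrophic RNA gave 4.99 and 5.65, and those with prehypertrophic beside proliferative RNA 0.65 and 0.37, so all 6 arrays had the same direction in either dye orientation. The summed leukocyte and marrow markers were also highest in the 4 hypertrophic samples (248.7 to 331, against at most 21.4 in the other 8), and their part in the Plk2 values was not tested.

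The promoter of Plk2 is shown because it carries a full cAMP response element, the palindrome TGACGTCA bound by factors of the CREB family, and that of Plk3 because it shares the core of this element, TGACG. Sequences run from 250 bases before to 50 after the start of transcription, 5′ to 3′ on the gene's strand (RefSeq, GRCm38.p6), and capitals mark every TGACG on either strand, which includes the full element. Plk2 lies at chr13:110394794-110395093 on the plus strand and Plk3 at chr4:117133914-117134213 on the minus strand.
Plk2: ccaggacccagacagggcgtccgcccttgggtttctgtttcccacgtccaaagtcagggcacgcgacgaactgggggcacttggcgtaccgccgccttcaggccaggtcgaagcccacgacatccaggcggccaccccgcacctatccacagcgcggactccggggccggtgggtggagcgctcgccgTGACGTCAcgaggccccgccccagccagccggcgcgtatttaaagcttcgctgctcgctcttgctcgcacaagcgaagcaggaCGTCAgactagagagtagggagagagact
Plk3: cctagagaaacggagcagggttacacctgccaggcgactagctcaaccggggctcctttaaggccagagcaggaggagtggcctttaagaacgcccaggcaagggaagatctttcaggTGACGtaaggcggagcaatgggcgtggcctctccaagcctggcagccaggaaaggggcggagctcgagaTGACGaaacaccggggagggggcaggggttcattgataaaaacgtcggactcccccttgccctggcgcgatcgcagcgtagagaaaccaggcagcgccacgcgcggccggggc
The full element of Plk2 begins at position -62 from the start site, and 1.79% of 32851 promoters of the same length hold it. Plk3 holds 2 copies of the core and no full element, and 20.8% of promoters hold at least 1 core. The AP-1 site TGANTCA (7.81% of promoters) and the CArG box bound by serum response factor (1.63%) were found in 0 of the 4 Plk promoters, searched on both strands. The motifs were chosen with these sequences in view, and a match describes letters, not a bound site.

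**Figure D1:**
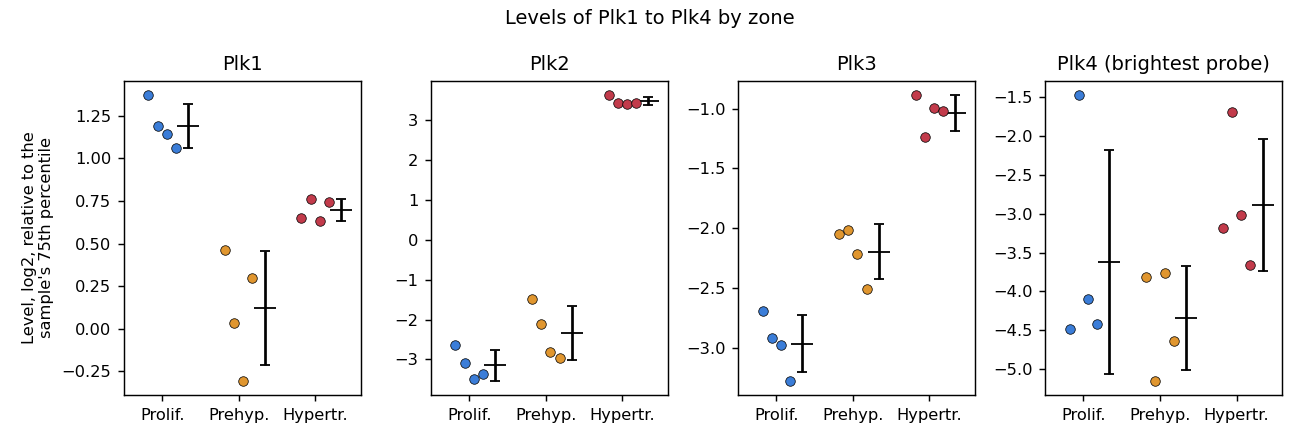
Level of each Polo-like kinase (log2, relative to the sample's 75th percentile) in the 4 samples of each zone, with points for replicates 1 to 4 from left to right and bars for the mean ± SD; each panel has its own axis. Plk2 sits near 3.48 in the hypertrophic zone against -2.34 and -3.15 in the others, Plk3 climbs over the 3 zones without overlap, Plk1 is lowest in the prehypertrophic zone, and Plk4 is spread widely.

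Plk3 rose at both steps. This kinase, like Plk2 induced by growth factors and stress, had signals of 301, 220, 282 and 232 in proliferative replicates 1 to 4. They were 407, 427, 467 and 386 in the prehypertrophic samples and 1089, 737, 875 and 891 in the hypertrophic samples. The 3 ranges did not overlap, and the spots were well above background in all 12 samples and saturated in 0. Mean levels were -2.97 ± 0.24, -2.20 ± 0.23 and -1.04 ± 0.15 (log2, SD, n = 4).

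Plk3 was 1.83 ± 0.03 higher (log2) in the hypertrophic than in the proliferative zone, or 3.56-fold (limma, adjusted p = 1.82e-05 over all features). It rose by 0.72 ± 0.03 from the proliferative to the prehypertrophic zone (adjusted p = 0.000129) and by 1.11 ± 0.03 from there to the hypertrophic zone (adjusted p = 5.08e-05). Of all features tested, 58.9%, 45.9% and 57.8% passed in these comparisons, and 28.2%, 23.4% and 28% passed as higher, so that a call alone says little about a single gene. The arrays gave almost the same ratio in both dye orientations: 1.89 and 1.77 for hypertrophic over proliferative, 1.14 and 1.09 for hypertrophic over prehypertrophic, and 0.73 and 0.72 for prehypertrophic over proliferative. Of its log2 rise, 60.7% fell in the second step, against 88.4% for Plk2. At the first step the fitted differences were 0.73 for Plk2 and 0.72 for Plk3, and no test set the genes against each other. For Plk2 the arrays that held both zones gave less, 0.65 and 0.37. Its prehypertrophic levels were -1.48 and -2.11 (log2) on the arrays shared with hypertrophic RNA, against -2.82 and -2.96 on those shared with proliferative RNA.

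**Figure D2:**
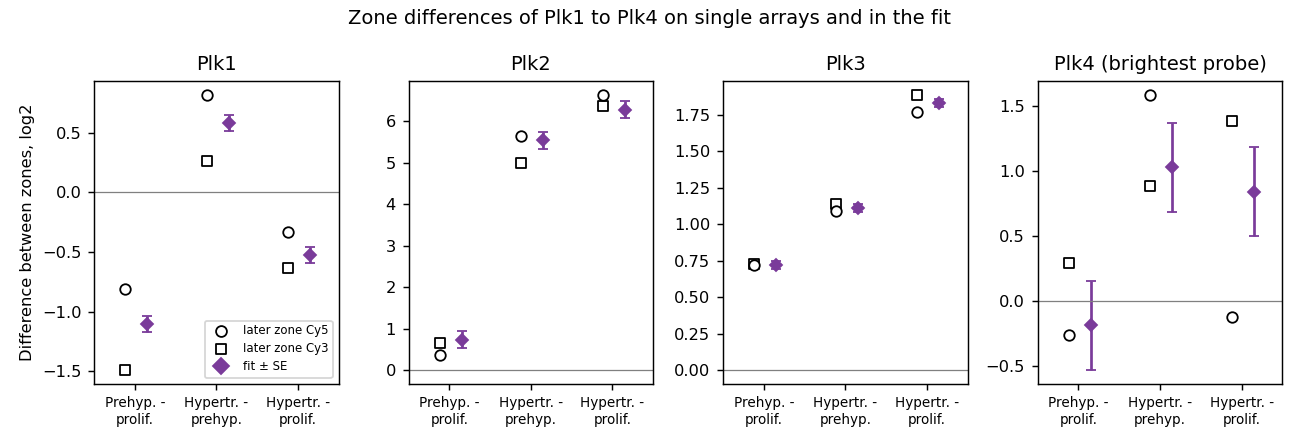
Difference between zones (log2) of each kinase on the 2 arrays that carried both zones (circles where the later zone was labelled with Cy5, squares where it was labelled with Cy3) and in the fit over all 6 arrays (diamonds, ± SE); each panel has its own axis. Plk3 shows near-equal ratios in both orientations, Plk1 and Plk2 keep their sign, and the brightest Plk4 probe gives 1.38 and -0.12 for hypertrophic less proliferative.

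Plk1 was lowest in the prehypertrophic zone. The signal of this mitotic kinase was 4996, 3800, 4944 and 4745 in the proliferative samples, 2286, 1752, 1745 and 2668 in the prehypertrophic samples and 3181, 2942, 2742 and 3043 in the hypertrophic samples. The 3 ranges were separate, although the gap between the highest prehypertrophic and the lowest hypertrophic sample was narrow. Mean levels were 1.19 ± 0.13, 0.12 ± 0.34 and 0.70 ± 0.07 (log2, SD, n = 4). No spot was saturated or below the background limit.

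The Plk1 difference was -1.11 ± 0.07 (log2) for prehypertrophic less proliferative, or 2.15-fold lower, and -0.53 ± 0.07 for hypertrophic less proliferative, or 1.44-fold lower. For hypertrophic less prehypertrophic it was 0.58 ± 0.07, or 1.49-fold higher. Single arrays scattered more with the dyes than those of Plk3. Prehypertrophic less proliferative was -1.49 with the prehypertrophic sample in Cy3 and -0.81 with it in Cy5, hypertrophic less prehypertrophic was 0.26 and 0.82, and hypertrophic less proliferative -0.64 and -0.33. The sign held on all 6 arrays.

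The Plk1 promoter is shown for the cell cycle genes homology region (CHR, TTTGAA), an element of many genes that are switched with the cell cycle, and for a CCAAT box, bound by NF-Y. It lies at chr7:122159185-122159484 on the plus strand (same source and window), with both motifs in capitals.
Plk1: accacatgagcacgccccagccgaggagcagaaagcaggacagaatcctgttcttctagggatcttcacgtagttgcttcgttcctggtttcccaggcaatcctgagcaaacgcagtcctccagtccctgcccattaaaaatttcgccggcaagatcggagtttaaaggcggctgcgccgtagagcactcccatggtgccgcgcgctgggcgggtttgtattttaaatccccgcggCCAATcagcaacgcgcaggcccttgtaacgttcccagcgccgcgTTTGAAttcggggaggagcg
The CCAAT box begins at position -14 from the start site and the CHR at position 31. TTTGAA was found in 17.9% and CCAAT in 37.4% of all promoters, on either strand. Neither was found in the promoters of Plk2, Plk3 and Plk4, while Plk4 held 1 TGACG core and Plk1 held 0.

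Plk4 had no zone difference that passed, and its probes did not tell the same story. With its brightest probe, the signals of this kinase of centriole duplication were 87.2, 596, 131 and 105 in proliferative replicates 1 to 4, 120, 46.7, 159 and 87.7 in prehypertrophic replicates and 221, 537, 216 and 149 in hypertrophic replicates. Proliferative replicate 2 and hypertrophic replicate 2, the 2 samples of array 2, stood far above the rest, and the ranges of all zones overlapped. Array 2 held 4479 of the 7249 ratios with an outlier flag over all arrays, though these 2 spots had no flag. Prehypertrophic replicate 2 was not well above background. Mean levels were -3.62 ± 1.44, -4.34 ± 0.67 and -2.89 ± 0.84 (log2, SD, n = 4).

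In the fit, the brightest Plk4 probe differed by 0.84 ± 0.34 (log2) between the hypertrophic and proliferative zones (limma, adjusted p = 0.102). It differed by 1.03 ± 0.34 between the hypertrophic and prehypertrophic zones (adjusted p = 0.0621) and by -0.19 ± 0.34 between the prehypertrophic and proliferative zones (adjusted p = 0.698). Without array 2 it passed as higher in the hypertrophic zone, by 1.32 against the proliferative zone (adjusted p = 0.0300) and 1.27 against the prehypertrophic zone (adjusted p = 0.0203). Arrays 1 and 2, which both held hypertrophic and proliferative RNA, gave 1.38 and -0.12.

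The other Plk4 probe that was kept gave another order of zones. Its signals were 314, 221, 303 and 206 in proliferative, 153, 21.3, 118 and 56.8 in prehypertrophic and 132, 272, 130 and 123 in hypertrophic replicates 1 to 4. The proliferative samples were all above the prehypertrophic ones, whereas the hypertrophic range overlapped with that of the proliferative samples through replicate 2, whose spot had an outlier flag. Prehypertrophic replicate 2, at 21.3, was not well above background, and the differences from that zone include it. The ratio of array 2, which held the flagged hypertrophic replicate 2, was left out of the fit for this probe. With each probe as a feature of its own, this probe's differences were -1.65 ± 0.54 (prehypertrophic less proliferative, limma adjusted p = 0.0993), -0.60 ± 0.64 (hypertrophic less proliferative, 0.488) and 1.05 ± 0.59 (hypertrophic less prehypertrophic, 0.237), none past the threshold. The sign against the proliferative zone was thus opposite to that of the brightest probe in the hypertrophic zone. The remaining Plk4 probe had signals of 14.1 to 77.5 and was well above background in 1 of 12 samples, so it was not used. Plk5, a further family member outside the chosen set, passed in no comparison (-0.33 ± 0.11 for hypertrophic less proliferative, limma adjusted p = 0.0884).

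**Figure D3:**
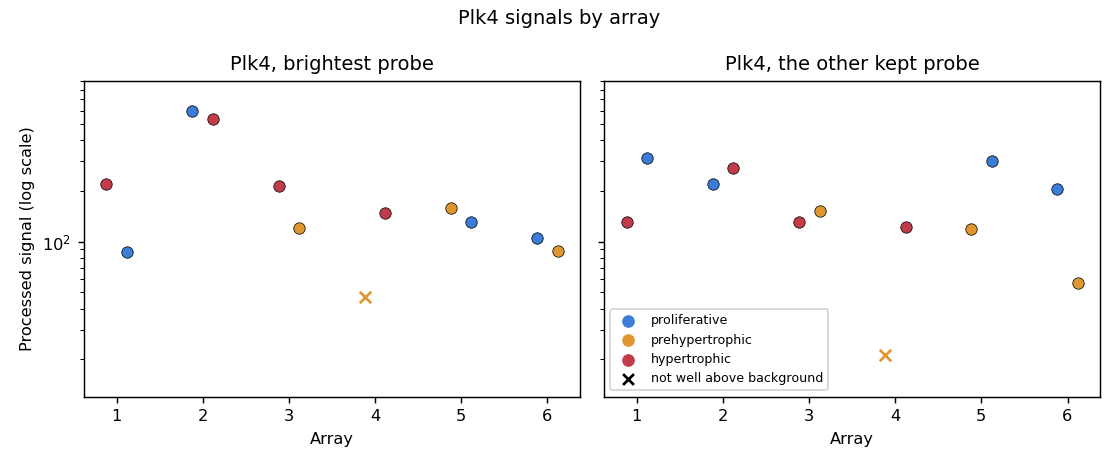
Processed signal (log scale) of the kept Plk4 probes on arrays 1 to 6, with the Cy3 sample left and the Cy5 sample right of each tick, coloured by zone; crosses are spots not well above background. On array 2 the brightest probe reads 596 and 537, against 46.7 to 221 on the other arrays, and on the other kept probe all 4 proliferative samples lie above all 4 prehypertrophic samples.

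For each kinase, the 5 named genes with the most similar level over the 12 samples (Pearson's r against 19320 other named features, a description across samples that share arrays) were listed. Plk2 was closest to Plac8 (r = 0.997), Fhl2, a LIM-domain cofactor, Fam107b, Plekho1 and Cldn13, a claudin (r = 0.997 each). Plac8 was 4.93 and Fhl2 3.59 higher (log2) in the hypertrophic than in the proliferative zone, with only 0.31 and 0.29 of it at the first step. Plk3 was closest to Ppp2r5e, a regulatory subunit of protein phosphatase 2A (r = 0.997), Ap1s3 (0.996), Dcaf4 (0.996), Vipr2, a receptor for vasoactive intestinal peptide (0.995), and Zc3hav1 (0.995). Ppp2r5e was 0.55 and then 0.90 higher at the successive steps. Plk1 was closest to the chemokine Cx3cl1 (0.973), Sgf29 (0.963), Slc35f1 (0.962), the endonuclease subunit Eme1 (0.962) and the checkpoint gene Rad9a (0.959), of which Cx3cl1 was at -2.55 for the first step and 1.65 for the second, with 3 of 4 prehypertrophic samples of Cx3cl1 well above background. For the brightest Plk4 probe the closest were Tekt1 (0.950), Rab32 (0.926), Uros (0.920), Ccdc122 (0.913) and Map3k20 (0.908). In each of these 5 genes, as in Plk4, replicate 2, on array 2, was the highest of the 4 proliferative and of the 4 hypertrophic samples. Rab32 had levels of 3.93 and 2.70 in these samples, against -3.82 to -3.15 in the other proliferative and -1.09 to -0.86 in the other hypertrophic samples.

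Most genes around Plk1 were lower in the prehypertrophic than in the proliferative zone. Of 29 measured genes (of 30 listed) that activate Plk1, dock it or act with it in mitosis, 22 fell, 1 rose and 6 did not pass from the proliferative to the prehypertrophic zone, where 22.5% of all features fell. The median log2 difference was -1.37 against 0.02 for all features. Aurkb, a kinase of the chromosomal passenger complex, fell by 5.76 ± 0.06, Ect2, which Plk1 recruits for cytokinesis, by 5.11 ± 0.16, and the kinesin Kif23 fell by 3.38 ± 0.13, beside the -1.11 of Plk1. Adjusted p-values (limma) of the list genes named for their size, here and below in the other lists, were at most 0.00283. With a gene's probes averaged, Ect2 changed by -2.53 and Kif23 by -1.82. The single rise was that of Sgo1, a protector of centromere cohesion, by 0.16.

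From the prehypertrophic to the hypertrophic zone, 20 of these 29 genes rose, 5 fell and 4 did not pass, with a median of 0.74 against -0.04 for all features, of which 28% rose and 29.9% fell. Aurkb rose by 4.31 over this step and Ect2 by 4.41, or by 2.08 with the probes of Ect2 averaged. With probes averaged, 3 genes in place of 5 passed as lower. Against the proliferative zone the hypertrophic zone had 23 lower, 2 higher and 4 that did not pass (median -0.62; 30.7% of all features fell). Racgap1, a cytokinesis regulator, fell by 1.85 ± 0.08, or -1.06 with its probes averaged, Aurkb fell by 1.45 ± 0.06 and the midzone protein Prc1 fell by 1.25 ± 0.06. The 2 higher genes were the phosphatase Cdc25b (0.54 ± 0.03) and Fbxo5, an inhibitor of the anaphase-promoting complex (0.80 ± 0.10). The markers of marrow, blood and vessel cells given above were high in the same samples in which these mitotic genes were higher again, and their part in it was not tested.

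Genes of centriole duplication, the process that Plk4 starts, had smaller medians. Of 23 measured, 15 fell, 3 rose and 5 did not pass from the proliferative to the prehypertrophic zone (median -0.34), where 22.5% of all features fell and 23.4% rose. In the next step 13 rose and 5 fell (median 0.33), where 28% of all features rose and 29.9% fell. Against the proliferative zone, 13 were lower and 5 higher in the hypertrophic zone (median -0.22), where 30.7% of all features were lower and 28.2% higher, and with probes averaged the count of lower genes was 8. Stil, which binds Plk4 in the growing centriole, fell by 2.16 ± 0.14 to the prehypertrophic zone, Cep192, which recruits Plk4 to centrioles, fell by 1.83 ± 0.04 and Cep57 fell by 1.17 ± 0.03. With probes averaged, Stil changed by -0.61 and Cep192 by -1.19. In the hypertrophic zone Cdk5rap2 was 1.45 ± 0.05 higher than in the proliferative zone, Cenpj, which sets centriole length, was 1.15 ± 0.05 higher, and Stil differed by -1.42 ± 0.14. With probes averaged Cdk5rap2 changed by 0.58 and Stil by -0.44.

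**Figure D4:**
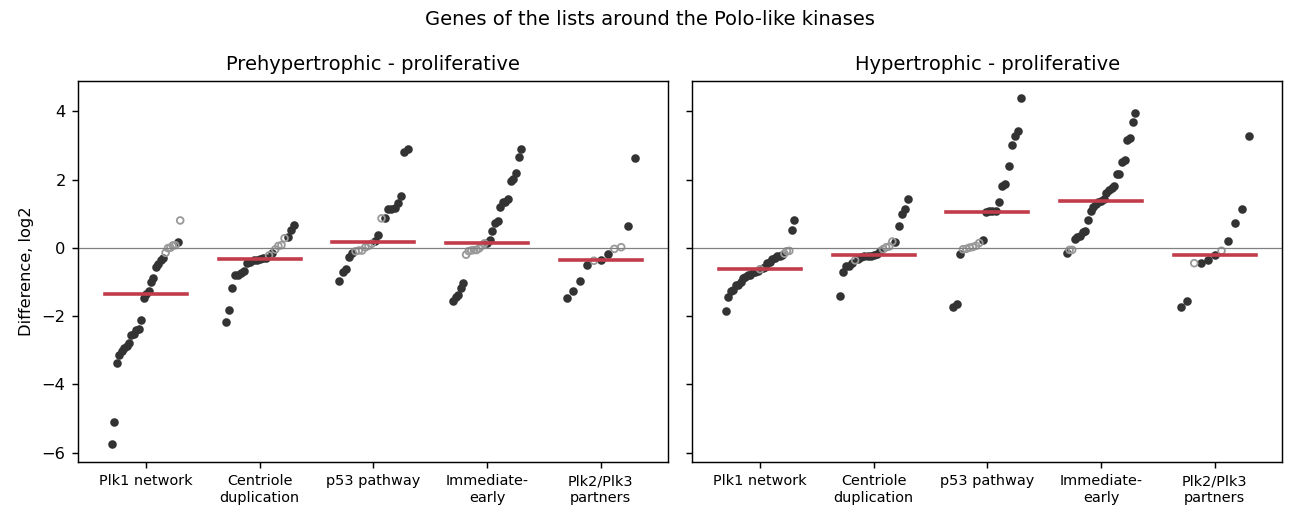
Log2 difference from the proliferative zone of each gene on the 5 lists, in the prehypertrophic (left) and hypertrophic zone (right), sorted within a list; filled points passed the test, open points did not, and red lines are medians. The Plk1 network is lowest on the left (median -1.37), and the immediate-early list is highest on the right (median 1.38).

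Immediate-early and serum-response genes, the class in which Plk2 and Plk3 were described, rose in the hypertrophic zone. Against the proliferative zone 24 of 27 rose, 1 fell and 2 did not pass, where 28.2% of all features rose, and the median was 1.38 against -0.03. Egr1 rose by 3.95 ± 0.11, Fos by 3.70 ± 0.04 and Atf3 by 3.22 ± 0.15, all transcription factors. The single fall was that of Myc, by 0.14. At the first step 14 rose, 5 fell and 8 did not pass (median 0.15), where 23.4% of all features rose and 22.5% fell, and with dye-exchanged arrays averaged the count that rose was 9. At the second step 19 rose, 3 fell and 5 did not pass (median 0.59), where 28% of all features rose and 29.9% fell.

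Some of these genes were high already in the prehypertrophic zone. Fos was 2.66 ± 0.04 and Atf3 2.19 ± 0.15 higher there than in the proliferative zone, where Plk2 was 0.73 higher. Klf2, a factor known from vessel walls and lymphocytes, was 2.91 ± 0.06 higher there and differed by -1.21 at the second step. It was saturated in 1 prehypertrophic sample, and with its probes averaged its first difference was 1.56. Egr1 fell by 1.37 ± 0.11 to the prehypertrophic zone and then rose by 5.32. The others that fell at the first step were Ier3, Ier5 and the matricellular genes Ccn1 and Ccn2, with differences of -1.54 to -1.03, and those that fell at the second were Klf2, Klf4 and Klf6. The marrow and blood markers were high in the same hypertrophic samples, and their part in these rises, and in those of the p53 list, was not tested.

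In the p53 pathway, which acts on Plk2 and Plk3, more genes rose than fell. Of 22 measured genes (of 24 listed), 13 rose, 3 fell and 6 did not pass between the proliferative and hypertrophic zones, where 28.2% of all features rose and 30.7% fell (median 1.06 against -0.03 for all features). Trp53inp1 rose by 4.38 ± 0.06, or by 2.44 with its probes averaged, the cell cycle inhibitor Cdkn1a by 3.41 ± 0.07 and the death factor Pmaip1 by 3.27 ± 0.40, with 3 of 4 proliferative samples of Pmaip1 well above background. The genes that fell were the kinase Chek2 (-1.73 ± 0.15, or -0.70 with its probes averaged), Zmat3 (-1.65 ± 0.03) and Sesn2 (-0.18 ± 0.04). Mdm2, a p53 target and its ubiquitin ligase, differed by 0.01 ± 0.03 and did not pass. At the first step 10 rose and 5 fell (median 0.16 against 0.02), where 23.4% of all features rose and 22.5% fell, led by Trp53inp1 (2.89 ± 0.06), Cdkn1a (2.81 ± 0.07) and the death factor Bbc3 (1.52 ± 0.04). At the second 13 rose and 6 fell (median 0.36 against -0.04), where 28% of all features rose and 29.9% fell. The falls depended on the probes and arrays used: with probes averaged, 2 genes fell at either step, and at the second step 3 fell without array 4. At the first step 3 fell with dye-exchanged arrays averaged, and likewise without array 6.

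Of 11 measured substrates and partners of Plk2 and Plk3 (of 14 listed), 4 rose, 5 fell and 2 did not pass between the proliferative and hypertrophic zones (median -0.22). Of all features 28.2% rose and 30.7% fell there, so these counts are not far from the background, and with dye-exchanged arrays averaged 3 fell. Gsk3b, a kinase of glycogen and Wnt signalling, rose by 3.27 ± 0.04. Sipa1l1, the synaptic Rap regulator that Plk2 marks for degradation in neurons, fell by 1.55 ± 0.06, and Chek2 fell as given above. At the first step 2 rose and 6 fell (median -0.35; 23.4% and 22.5% of all features), with Gsk3b 2.64 ± 0.04 higher, Sipa1l1 at -1.46 ± 0.06 and the kinase Vrk1 at -1.27 ± 0.07. At the second 4 rose, 1 fell and 6 did not pass (median 0.08; 28% and 29.9% of all features rose and fell). Cenpj and Chek2 each stand on 2 of the 5 lists.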

How the data were processed

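The authors deposited, per the file headers, 1 file per channel with the processed signal as an intensity from Agilent Feature Extraction 8.1.1.1, background-subtracted, detrended and dye-normalized within each array, with flags for saturation, outliers and signal well above background (multiplier 2.6). A deposited table of log2 values was not used: only 1 of 12 columns was closest to the scanner file it is named for. Only 6 were closest to a scanner file of the same zone. The zones used here are those in the sample titles of the scanner files, and the marker values above are the only check made on them.

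Channels were joined by spot, and log2 ratios were normalized by loess in limma 3.58.1 (R 4.3.3). Ratios with an outlier flag were left out, spots of a probe averaged and probes kept if well above background in at least 4 of 12 samples (40017 of 41174). The brightest probe stood for a gene (27241 features, 27173 tested). Symbols came from the platform annotation (32691 probes with 1 symbol, 8483 with none). Zone and dye were fitted to the 6 ratios (eBayes, 3 residual degrees of freedom), with Benjamini-Hochberg adjusted p under 0.05 over all features. The number of arrays limits the precision. Within a zone, levels correlated at 0.958 to 0.977 across features, which are not independent replicates. The pipeline was tested on simulated ratios of 27173 features, with 100 changed by 1 and 100 by 2 (log2). It recovered 74% and 82% of these for hypertrophic against proliferative, with 13 false calls. For prehypertrophic against proliferative it recovered 80% and 94%, with 10 false calls. All 4 Plk genes were named, the 3 largest called changes per list in 2 comparisons, and 5 similar genes per kinase, and other names were added after their values were seen. The members, lists and alternatives were chosen with earlier results of these data known. The alternatives changed normalization, dye term, outlier flags, probes, filter, moderation, pairing and arrays.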

Additional observations from a re-analysis of the deposited data

Results flagged for a closer look

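Of 15 groups of 4 samples (5 kept Plk probes in 3 zones), 2 held a sample whose gap to the nearest other, divided by the range of the group, exceeded Dixon's critical value of 0.829 (0.885 for Plk2 and 0.871 for Plk4), and chance flags about 1 in 20 groups. For Plk2 in the hypertrophic zone, replicate 1 had a level of 3.63 (log2), above the 3.42 to 3.45 of the other 3. For the brightest Plk4 probe in the proliferative zone, replicate 2 had a level of -1.48, above the -4.48 to -4.09 of the others. The other sample of that array, hypertrophic replicate 2, was also the highest of its zone for this probe, at -1.70.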

How the results depend on the processing

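Across 11 other settings and 6 left-out arrays, the 3 differences of Plk3 kept their direction and stayed past the threshold. Those of Plk1 and Plk2, which are described without a test, kept their direction. Leaving out an array gave 6.11 to 6.43 for Plk2 between the hypertrophic and proliferative zones, 1.82 to 1.86 for Plk3 and -0.62 to -0.48 for Plk1. The small Plk2 step from proliferative to prehypertrophic ran from 0.58 to 1.05. Over the 11 other settings this step ran from 0.53 to 0.73. Plk2 has 1 probe, so averaging a gene's probes could not move it. Nor could fitting each probe as a feature of its own, an alternative chosen after seeing the data.

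Leaving out an array moved the brightest Plk4 probe from 0.58 to 1.32 (hypertrophic less proliferative), from 0.51 to 1.27 (hypertrophic less prehypertrophic) and from -0.36 to 0.070 (prehypertrophic less proliferative, with the sign turned at 0.053 without array 2 and 0.070 without array 4, where adjusted p values were 0.874 and 0.791). Without array 2, Plk4 passed in the first 2. It passed for hypertrophic less prehypertrophic with dye-exchanged arrays averaged (1.03), and in the separate-channel fit (0.83 and 1.04 against the proliferative and prehypertrophic zones). Its other kept probe turned the first difference to -0.60. The filter on all 12 samples removed Plk4. The causes were not tested.

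In the separate-channel fit with replicate numbers as a block, Plk4 passed for hypertrophic less proliferative (0.68), and no call of Plk3 or other call of Plk4 changed from the ratio fit. It called 16658 features (hypertrophic against proliferative), 13331 (prehypertrophic against proliferative) and 14900 (hypertrophic against prehypertrophic). Same-numbered samples of different zones on different arrays deviated from their zone means with r of -0.25 to 0.27 (median 0.05, 8 pairs). Differently numbered samples on different arrays had r of -0.31 to 0.33 (median -0.12, 34 pairs). These overlapping ranges do not settle whether the numbers pair the samples. Counts of all called features, without an array, were 12935 to 15065 (hypertrophic against proliferative), 8768 to 11331 (prehypertrophic against proliferative) and 12344 to 15057. Of 510 recomputed list counts, 477 stayed within 1.5 times, and those that moved most are given with their lists.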
